A study of Mus musculus with 12 samples.

Results

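Collagens were followed gene by gene in whole islets of mice in which pancreatic β-cells overexpress miR-7a2 (Tg7) and in islets of their Wt littermates. A row of the count table was taken as a collagen gene if its mouse symbol read Col, a number, the letter a and a number, which gave 44 of 37991 genes. The symbol of 43 came from the annotation of the files' genome, and Col26a1 was found there under its older name Emid2. All animals were male C57BL/6 mice, and islets of either genotype were taken at 2 weeks (2w) and at 12 weeks (12w) of age, which makes 4 groups of 3 libraries. The 12w Wt libraries carry the numbers 1, 2 and 4. A library pooled islets from 3 or more animals, so the p-values below measure the spread between these pools and not between single mice. Which promoter drives the transgene was not given in the sources used here. Wt mice were littermates without the transgene, and the labels name no further allele or treatment.

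Collagens are secreted proteins of 3 chains that wind into a triple helix, which needs glycine at the head of each triplet of residues (Gly-X-Y). Fibrillar collagens assemble into the fibres of connective tissue, type IV collagen forms the mesh of basement membranes, and the remaining families decorate fibrils, build microfilaments or stay anchored in the cell membrane. In the pancreas, fibrillar collagens are known mainly as products of stellate cells, pericytes and fibroblasts, and islet capillaries are wrapped in a basement membrane of which endothelial cells are a main source. Here 11 genes were placed in the fibrillar class (types I, II, III, V, XI, XXIV and XXVII), 8 in the basement membrane class (type IV with types XV and XVIII) and 25 in a class of all others.

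The number of glycine-led triplets, which the rule did not use, overlapped between the classes, but the longest unbroken run was longer in each fibrillar chain than in any other chain. In the translated coding sequences, the longest unbroken run had 337 to 344 glycine-led triplets in 9 of the 11 fibrillar chains, and the longest runs of Col24a1 and Col27a1 had 216 and 217. The 6 type IV chains carried a similar number of triplets in all, 425 to 443, but split into 23 to 27 runs, the longest of which had 66. The 6 type VI chains held 107 to 110 triplets in chains of up to 2657 residues. The multiplexins Col15a1 and Col18a1 of the basement membrane class held 121 and 176, and the class of others as a whole ran from 34 in Col26a1 to 470 in Col7a1, with no unbroken run over 113.

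Because the transgene makes miR-7a, its mature sequence (RefSeq, GRCm38.p6, Mir7-2 locus, chr7:78888295-78888317, plus strand) is printed here with the seed, bases 2 to 8, in capitals.
mmu-miR-7a-5p: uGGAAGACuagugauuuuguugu
The 7-base complement of this seed, GTCTTCC, was looked for on the sense strand of the longest annotated 3′ UTR of each gene (GENCODE M1, NCBIM37). It occurred in 9 of 44 collagen genes (20.5%). Of genes with an annotated 3′ UTR, 11.2% of all and 13.2% of the tested ones held it. The 44 genes include untested ones, and UTR length was not matched. In Col4a6, Col6a3 and Col11a1 the matches lie well inside the gene span, far from its 3′ end. No excess is read from these shares. The 9 genes were Col2a1, Col4a2, Col4a6, Col6a1, Col6a3, Col11a1, Col25a1, Col26a1 and Col27a1. The matches in the 3 of them that were upregulated in Tg7 islets at 12w (values below) are shown with their flanks on the transcribed strand, with the match in capitals.
Col4a2, chr8:11448842-11448848, plus strand: accttcctgcaGTCTTCCtaaaatgaggc
Col6a1, chr10:76172028-76172034, minus strand: ccagccatctcGTCTTCCtcctcactgcc
Col6a1, chr10:76171956-76171962, minus strand: gtctgtgttctGTCTTCCatgctcaacat
Col6a3, chr1:92688203-92688209, minus strand: cggtcatgcttGTCTTCCcatggagggag
The Col6a3 match lies inside the gene (chr1:92663435-92740529), far from its 3′ end, and may not be in the 3′ UTR of the full-length transcript. A match is a description of letters and not a measured site.

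The 250 bases upstream of the annotated start (RefSeq, GRCm38.p6) were read for 35 of the 44 genes, and those of 3 fibrillar genes upregulated at 12w (values below), from types I, III and V, are set side by side. Capitals mark a CCAAT box (CCAAT), a GC box (GGGCGG) or a TATA box (TATAAA) on either strand.
Col1a2, chr6:4505368-4505617, plus strand: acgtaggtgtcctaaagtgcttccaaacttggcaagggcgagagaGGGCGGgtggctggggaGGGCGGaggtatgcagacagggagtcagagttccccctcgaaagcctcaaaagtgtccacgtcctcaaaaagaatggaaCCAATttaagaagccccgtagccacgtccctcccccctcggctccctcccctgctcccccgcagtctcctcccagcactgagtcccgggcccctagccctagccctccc
Col3a1, chr1:45311288-45311537, plus strand: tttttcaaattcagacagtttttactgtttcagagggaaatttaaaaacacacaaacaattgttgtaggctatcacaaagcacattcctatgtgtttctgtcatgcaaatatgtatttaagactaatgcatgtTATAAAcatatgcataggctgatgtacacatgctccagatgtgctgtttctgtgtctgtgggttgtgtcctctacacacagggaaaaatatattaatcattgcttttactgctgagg
Col5a1, chr2:27886175-27886424, plus strand: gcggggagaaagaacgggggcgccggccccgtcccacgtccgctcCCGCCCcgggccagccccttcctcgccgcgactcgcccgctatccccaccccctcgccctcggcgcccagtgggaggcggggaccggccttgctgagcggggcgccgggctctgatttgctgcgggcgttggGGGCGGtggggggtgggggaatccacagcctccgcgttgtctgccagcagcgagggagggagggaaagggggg
No motif occurred in all 3 windows: Col1a2 held 1 CCAAT box and 2 GC boxes, Col3a1 a single TATA box and Col5a1 2 GC boxes. Of the 35 collagen genes with a window, 13 held a CCAAT box, 21 a GC box and 5 a TATA box in any of their 38 windows. Of all 32851 windows in the table, 33.8%, 32.7% and 12.4% held these motifs. The former are counts of genes and the latter shares of windows, so they are not like for like.

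The libraries held 11610697 to 17515758 counts. Levels are given as CPM, counts scaled to a common library total with the trimmed mean of M values (TMM), and levels are set against each other between genes only after division by the merged exon length (CPM per kilobase). Of the 44 genes, 33 passed the filter on low counts and were tested in edgeR, 24 of them over the filter's level in all 12 libraries, and Col6a5 passed through a single group, Tg7 at 12w. A gene was called upregulated or downregulated at a Benjamini-Hochberg adjusted p under 0.05 over all 15961 tested genes. Cell type markers differed between the groups. The summed level of 12 stellate cell, pericyte and fibroblast markers was 77.9 to 142 CPM in Wt and 239 to 249 CPM in Tg7 islets at 12w (10 of 12 upregulated, 4 of 12 at 2w). That of 10 endothelial markers was 425 to 551 CPM in Wt and 861 to 921 CPM in Tg7 at 12w (9 of 10 upregulated, 0 of 10 at 2w). Of the 4 stellate markers upregulated at 2w, Pdgfra, Dcn and Lum were scattered in Tg7 (8.1 ± 8.06, 15.8 ± 9.41 and 6.49 ± 4.52 CPM, mean ± SD, n = 3). Thy1 was less so (18.3 ± 3.08 CPM). All 12 stellate and all 10 endothelial markers had counts in every group. The 6 β-cell markers were downregulated at both ages, whereas the 6 acinar markers summed to at most 4.54 CPM in any library. Of the remaining lists, 2 of 4 tested ductal markers were upregulated at 12w, 1 of 7 macrophage markers was upregulated at 2w and 1 downregulated at 12w, the 1 tested mesothelial marker, Msln, was downregulated at both ages, and no α- or δ-cell marker was called between genotypes. Of all tested genes, 6.07% were upregulated and 4.55% downregulated at 2w, and 12.5% and 11.2% at 12w. The part of these marker shifts in the collagen results was not tested. In whole islets fewer cells of a type and less RNA per cell cannot be told apart. Among the Wt libraries at 12w, replicate 4 stood apart with 14.85% of its counts on Ins1 and Ins2, against 29.995% and 27.011% in replicates 1 and 2. The Mir7-2 row held 0 to 13 counts per library in both genotypes and gives no check of the transgene.

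By summed level per kilobase, basement membrane collagen was the largest of the 3 classes in each of the 12 libraries. Per kilobase, Col4a1 and Col4a2, the chains of the ubiquitous type IV network, ranked highest and next highest of the 44 genes in all 4 groups, with either measure of length. The Col4a1 level per kilobase was 106 ± 13.9 in Wt and 108 ± 9.13 in Tg7 at 2w, and 14.8 ± 3.4 and 30.7 ± 1.21 at 12w (mean ± SD, n = 3). By merged exon length the gene in the next place was Col15a1 in both groups at 2w (Col3a1 in Tg7 by the longest transcript). At 12w it was Col3a1 in Tg7 and Col6a6 in Wt islets by both lengths, but in Wt the place of Col6a6 rested on replicate 4: without it, an alternative chosen after its values were seen, Col27a1 ranked above Col6a6 (means of 4.44 and 4.12 CPM per kilobase by merged exons). Counted over all 44 genes, collagen took 0.205% ± 0.0109 of all counts in Wt and 0.268% ± 0.0303 in Tg7 at 2w, and 0.0304% ± 0.00703 and 0.103% ± 0.00191 at 12w (SD, n = 3). These are shares of raw counts without TMM scaling. With it, the mean summed CPM was 1993 in Wt and 2313 in Tg7 at 2w, and 384 and 960 at 12w, a smaller contrast at 12w.

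The fibrillar class held a larger share of the summed level per kilobase in Tg7 than in Wt islets at both ages. At 2w its share was 12.7, 13.4 and 11.8% in the 3 Wt libraries and 19, 18.5 and 18.8% in the Tg7 libraries. At 12w it was 15.3, 18.9 and 8.61% in Wt and 29.5, 26 and 28.2% in Tg7. The genotypes did not overlap at either age, and the Wt libraries at 12w were the most scattered, with replicate 4 lowest. With 3 libraries against 3, an exact permutation test of 1 value cannot give a two-sided p under 0.1, so no test is given for these shares. They rest on merged exon length, which exceeds the longest transcript for Col1a2 (12145 against 5347 bases) and Col27a1 (13022 against 7612 bases). Shares by the longest transcript were not computed. The basement membrane share was 69.9 to 71.0% in Wt and 64.8 to 65.5% in Tg7 at 2w, and 50.7 to 57.9% and 48.6 to 52.0% at 12w, where the groups overlapped.

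**Figure D1:**
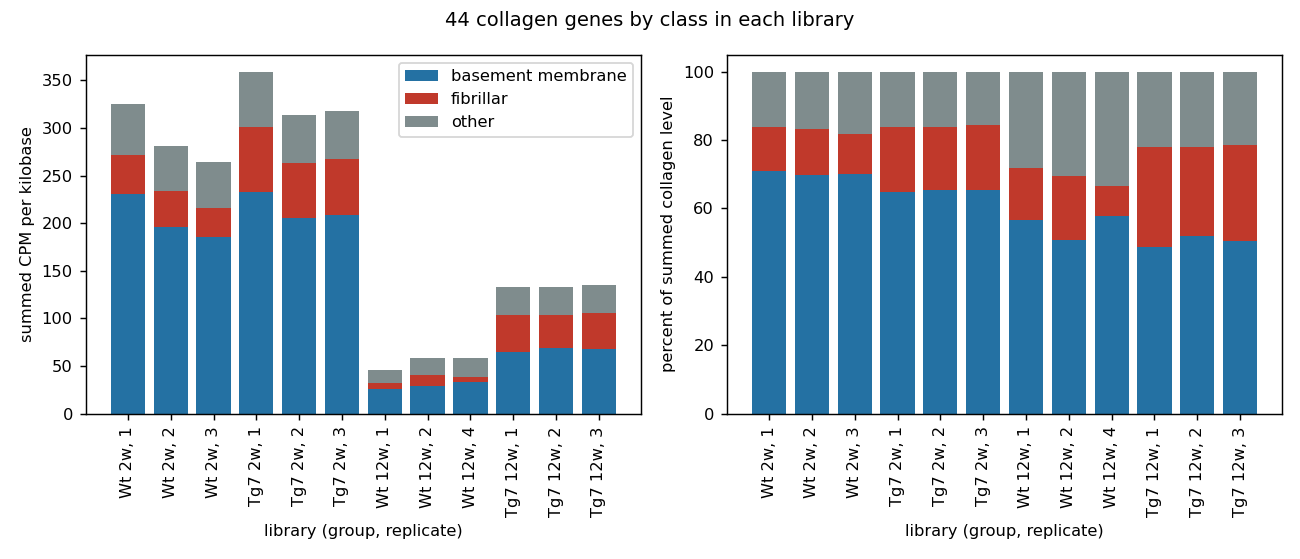
Summed CPM per kilobase of the 44 collagen genes in each library (left) and the percent of that sum in each class (right), with basement membrane genes in blue, fibrillar genes in red and the others in grey. The bars of the Wt libraries at 12w are the lowest, and the red part is larger in Tg7 than in Wt at either age.

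The Wt value of the fibrillar class at 12w rested largely on Col27a1, a fibrillar collagen with a shorter helix that is known from cartilage. It supplied 48, 50.3 and 37.2% of the class in the Wt libraries at 12w but 18.5, 13.9 and 13.6% in Tg7. In an alternative added after its values were seen, it was left out of the class but kept in the collagen total. The fibrillar share at 12w was then 7.94, 9.38 and 5.41% in Wt and 24, 22.4 and 24.3% in Tg7. At 2w it was 11.5, 11.8 and 10.2% and 17.8, 16.6 and 17.4%. On this measure the fibrillar share of Wt islets was lower at 12w than at 2w in every library, while in Tg7 islets it was higher. Shares with Col27a1 also taken out of the total were not computed, and the narrow gap between the Wt ages may not hold there.

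The comparison of Tg7 with Wt islets asks which collagens differ when β-cells carry excess miR-7. At 2w, 7 of the 33 tested collagen genes were upregulated, where 6.07% of all tested genes were, and 1 was downregulated, against 4.55%. At 12w, 20 were upregulated and 1 downregulated, against 12.5% and 11.2% of all tested genes. The 20 include Col6a5, which passed the filter only through Tg7 islets at 12w, where it is high, and so do the medians that follow. The median log2 fold change of the 33 genes was 0.46 at 2w and 1.46 at 12w, beside 0.03 and −0.01 over all tested genes. In the test of the difference between the ages, the Tg7 effect was larger at 12w for 11 collagen genes (0.871% of all tested genes) and smaller for none (0.307%). No collagen gene reached an unadjusted p under 0.05 in the smaller direction in edgeR, and DESeq2 also called 0. The 2w count was the least stable: it fell to 3 without Wt replicate 3 at 2w and to 4 without Wt replicate 2 at 2w, and rose to 12 without Wt replicate 4 at 12w. Without that library Col6a3, Col12a1, Col14a1, Col15a1 and Col18a1 were called at 2w as well, Col24a1 passed the filter and was called at 12w in place of Col6a5, and the difference between ages was also called for Col6a6 and Col14a1.

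**Figure D2:**
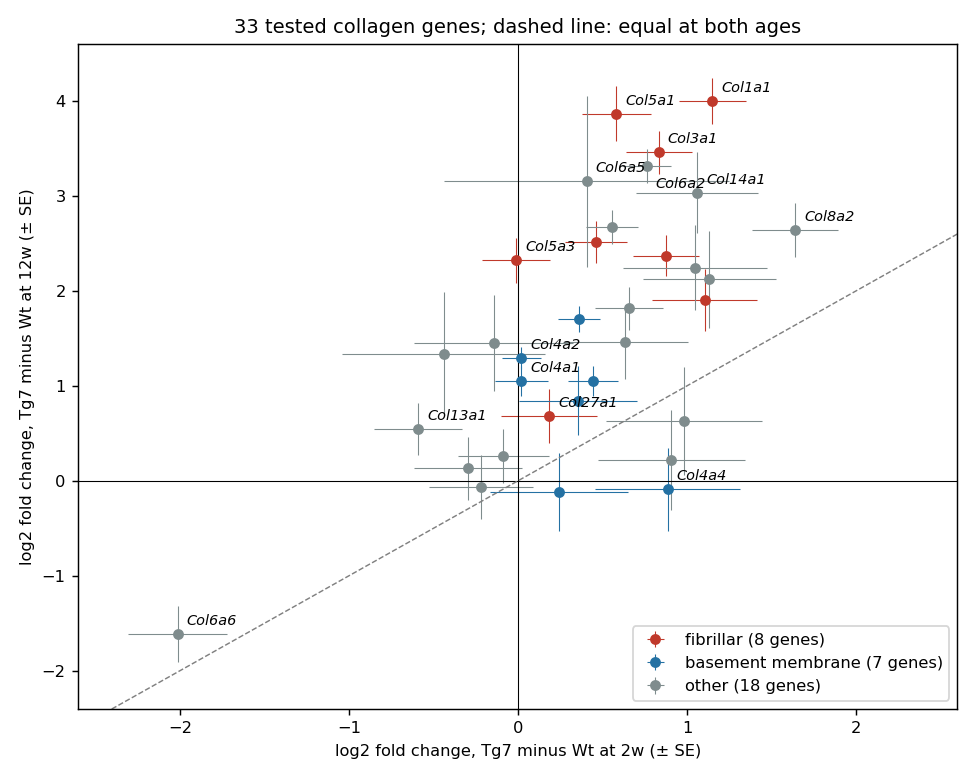
Log2 fold change of Tg7 against Wt at 2w (x axis) and at 12w (y axis) for the 33 tested collagen genes, with standard errors as bars and the classes as colours. Most points lie above the dashed line of equal effects, the fibrillar genes Col1a1 and Col5a1 reach 3.996 and 3.87 at 12w, and Col6a6 lies at −2.01 and −1.61.

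By class, 4 of 8 tested fibrillar genes were upregulated at 2w and 7 at 12w, with median log2 fold changes of 0.71 and 2.44. Of 7 tested basement membrane genes, 0 were called at 2w and 4 were upregulated at 12w (medians 0.36 and 1.05). Of the 18 tested genes of the other class, 3 were upregulated and 1 downregulated at 2w, and 9 and 1 at 12w (medians 0.60 and 1.46). The difference between ages was called for 6 fibrillar, 3 basement membrane and 2 other genes. With type IV alone as the basement membrane class, 0 of 5 tested genes were called at 2w and 2 at 12w. No test between the classes was made, and the counts describe these libraries. The 12w counts include Col6a5, which passed the filter on low counts only through Tg7 islets at 12w, where it is high.

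Type I collagen is the main fibre protein of connective tissue, and its chain Col1a1 had the highest log2 fold change of the 33 genes at 12w. Col1a1 (ENSMUSG00000001506, chr11:94797538-94814356, plus strand, NCBIM37) stood at 49.2, 43.8 and 32.4 CPM in Wt and at 107, 87.4 and 83.6 CPM in Tg7 at 2w. At 12w it stood at 4.03, 3.89 and 2.4 CPM in Wt (replicates 1, 2 and 4) and at 55.8, 42.4 and 63.2 CPM in Tg7. Every Tg7 library lay above every Wt library of its age, and the lowest values of the series were those of Wt islets at 12w. Its log2 fold change was 1.15 (adjusted p = 0.0023, SE 0.20) at 2w and 3.996 (adjusted p = 1.65e-07, SE 0.24) at 12w, and the effect was 2.85 larger at 12w (SE 0.31, adjusted p = 5.13e-04). Col1a1 shares 109 exon bases with a gene model on the opposite strand, Gm17329, and whether reads were counted by strand was not given in the sources used here.

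Col1a2 (ENSMUSG00000029661, chr6:4454814-4491543, plus strand), the partner chain, was at 55.2, 42.9 and 34.2 CPM in Wt and 100.3, 69.7 and 72.8 CPM in Tg7 at 2w. At 12w the values were 9.71, 12.6 and 7.93 CPM and 55.4, 48.1 and 52.9 CPM. The genotypes did not overlap at either age, with a log2 fold change of 0.88 (adjusted p = 0.0121, SE 0.20) at 2w and 2.37 (adjusted p = 5.77e-06, SE 0.22) at 12w. The 2w call was lost without Wt replicate 3 at 2w, and that of the difference between ages (1.49, adjusted p = 0.023, SE 0.29) was lost in 8 of the 12 fits that left out 1 library.

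Col3a1 (ENSMUSG00000026043, chr1:45368383-45406551, plus strand) encodes type III collagen, which shares fibres with type I and is prominent in vessel walls. It was at 122, 98.3 and 75.4 CPM in Wt and 198, 155 and 174 CPM in Tg7 at 2w. At 12w it was at 5.42, 10.5 and 7.27 CPM and 86.6, 91.6 and 80.6 CPM. Wt libraries lay below Tg7 libraries at both ages. The log2 fold change was 0.83 (adjusted p = 0.0153, SE 0.20) at 2w and 3.46 (adjusted p = 2.73e-07, SE 0.23) at 12w, and the difference between them 2.63 (adjusted p = 5.51e-04, SE 0.29). The 2w call was lost without Wt replicate 2 or replicate 3 at 2w.

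The type V chains, which are known to start fibrils and set their width, were called at 12w and not at 2w. Col5a1 (ENSMUSG00000026837, chr2:27741945-27895034, plus strand) was at 28.5, 27.6 and 22.9 CPM in Wt and 48.4, 28.3 and 41.5 CPM in Tg7 at 2w, where the ranges overlapped. At 12w it was at 0.378, 1.03 and 0.867 CPM in Wt and was 11.4, 11.1 and 13 CPM in Tg7, with no overlap. Its log2 fold change was 0.58 (adjusted p = 0.0824, SE 0.20) at 2w and 3.87 (adjusted p = 1.07e-06, SE 0.29) at 12w, and the difference, 3.28 (adjusted p = 5.30e-04, SE 0.36), was the highest of the 33 genes. Col5a1 shares 212 exon bases with 2 gene models on the opposite strand.

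Col5a2 (ENSMUSG00000026042, chr1:45431166-45560127, minus strand), which lies tail to tail with Col3a1 at a distance of 24614 bases, was at 20.5, 17.2 and 15.1 CPM in Wt and 27.9, 23.5 and 21.1 CPM in Tg7 at 2w. It was at 2.27, 1.59 and 2.4 CPM and 10.7, 13.6 and 11.56 CPM at 12w. Tg7 lay above Wt at both ages, by a narrow margin at 2w, where the gene was not called (0.46, adjusted p = 0.124, SE 0.18). At 12w it was (2.52, adjusted p = 4.01e-06, SE 0.22), and the effects differed by 2.06 (adjusted p = 0.00269, SE 0.29). Col5a3 was at 21, 28.9 and 25.3 CPM in Wt and 28.3, 20.7 and 25.5 CPM in Tg7 at 2w. At 12w its values were 2.39, 2.7 and 2.13 CPM and 13, 8.63 and 14.5 CPM. The genotypes were interleaved at 2w (−0.01, adjusted p = 0.981, SE 0.20) and apart at 12w (2.32, adjusted p = 1.58e-05, SE 0.24), and the difference between ages was 2.33 (adjusted p = 0.00222, SE 0.31).

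Col11a2, a chain of the cartilage collagen type XI, was called at both ages. It was at 14.1, 13.5 and 13.9 CPM in Wt and 18.5, 38.3 and 32.5 CPM in Tg7 at 2w. The 12w values were 6.3, 12.2 and 4.07 CPM and 27.5, 28.9 and 28.4 CPM. Tg7 libraries were higher throughout, but the 2w call (1.10, adjusted p = 0.0372, SE 0.31) was lost in 8 of the 12 fits without 1 library, whereas that at 12w (1.91, adjusted p = 9.23e-04, SE 0.33) was kept in each of them. Col27a1 differed in neither comparison by the test: it was at 52.6, 56.6 and 55.5 CPM and 55.7, 75 and 56.7 CPM at 2w, and at 43.5, 72.1 and 24.3 CPM and 94.4, 62.4 and 67.1 CPM at 12w. Its Wt libraries at 12w included the lowest value of the series and overlapped those of Tg7, and the 12w effect was 0.68 (adjusted p = 0.104, SE 0.29).

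**Figure D3:**
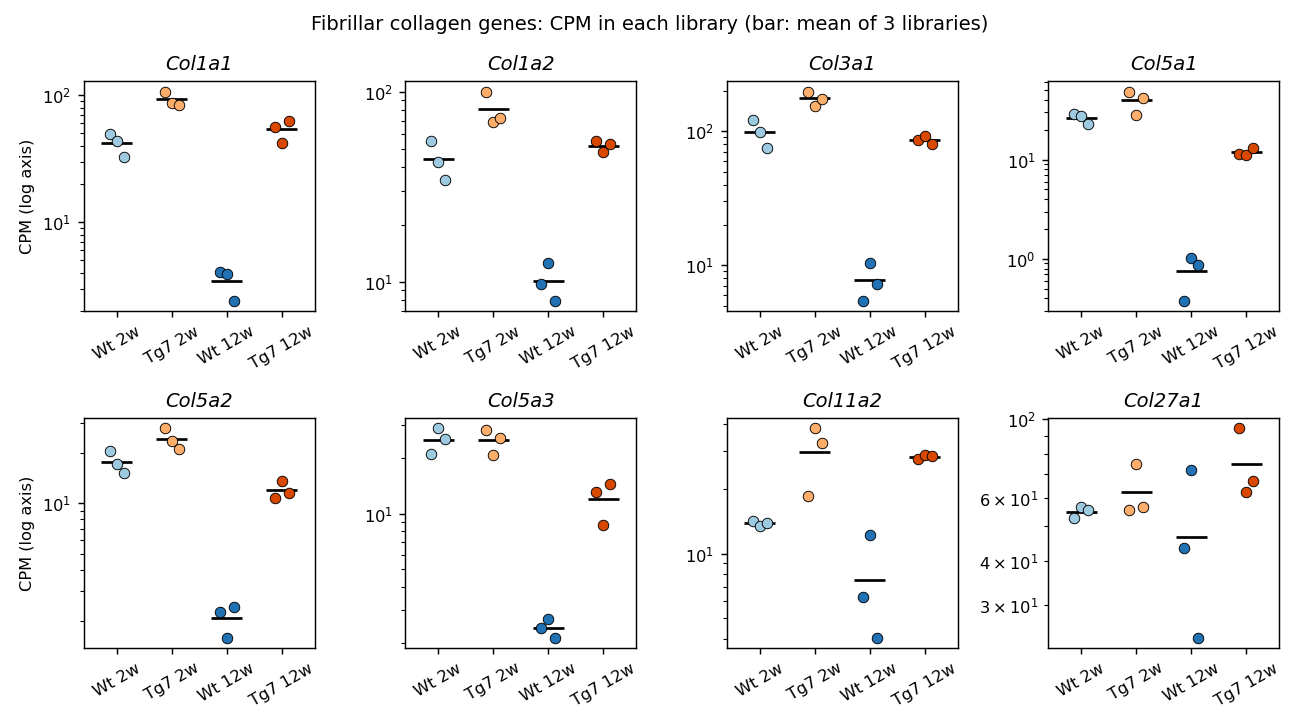
CPM on a log axis in each library for the 8 tested fibrillar collagen genes, with 1 point per library and a bar at the mean of 3. For Col1a1, Col1a2, Col3a1 and the 3 type V genes the Wt libraries at 12w are the lowest, while the groups of Col27a1 overlap.

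Among basement membrane genes, the type IV pair Col4a1 and Col4a2 were called between genotypes at 12w and not at 2w. They are transcribed away from each other from starts that overlap by 22 bases on chromosome 8 (NCBIM37, Col4a1 chr8:11198423-11312826, Col4a2 chr8:11312805-11449287). Col4a1 was at 826, 709 and 638 CPM in Wt and 805, 711 and 687 CPM in Tg7 at 2w. The 12w levels were 79.7, 96.5 and 126 CPM and 199.8, 215 and 212 CPM. The ranges coincided at 2w and were apart at 12w, with log2 fold changes of 0.02 (adjusted p = 0.954, SE 0.16) and 1.05 (adjusted p = 3.78e-04, SE 0.16).

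Col4a2 was at 516, 433 and 421 CPM in Wt and 504, 433 and 452 CPM in Tg7 at 2w. At 12w the values were 58.6, 64.1 and 65.3 CPM and 153, 156 and 152 CPM. It too overlapped at 2w and was apart at 12w (1.29, adjusted p = 6.12e-06, SE 0.12). The difference between ages was 1.27 (adjusted p = 0.00176, SE 0.17) for Col4a2 and 1.03 (adjusted p = 0.0422, SE 0.22) for Col4a1, and the Col4a1 call was lost in 10 of the 12 fits without 1 library. Of the 10 endothelial markers 9 were upregulated at 12w and 0 at 2w, beside 12.5% and 6.07% of all tested genes. The part of these markers in this result was not tested.

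The multiplexins Col15a1 and Col18a1 encode proteoglycan-like collagens of the basement membrane zone, and the end of the latter is the source of endostatin. Col15a1 was at 137, 119 and 108 CPM in Wt and 162, 148 and 159 CPM in Tg7 at 2w. It stood at 12w at 14.6, 15.2 and 18.6 CPM and 48.3, 55.7 and 54.7 CPM. Tg7 was higher in every library at both ages, but only 12w passed the test (0.36, adjusted p = 0.0782, SE 0.13 at 2w, 1.71, adjusted p = 1.70e-06, SE 0.13 at 12w), and the difference was 1.34 (adjusted p = 0.00235, SE 0.18). Col18a1 was at 62, 47.4 and 65.9 CPM and 80.9, 76.8 and 81 CPM at 2w. Its 12w values were 13.7, 13.7 and 9.93 CPM in Wt and 24.5, 25.1 and 27.2 CPM in Tg7. The groups did not overlap at either age, and it was called at 12w (1.05, adjusted p = 3.36e-04, SE 0.16), without a called difference between ages (0.61, adjusted p = 0.214, SE 0.21).

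The remaining type IV chains, known from kidney and other specialised basement membranes, were low. In every group Col4a3, Col4a4 and Col4a5 averaged at most 0.691 CPM per kilobase, and none was called in any comparison. At 12w their log2 fold changes were −0.12 (adjusted p = 0.878, SE 0.41), −0.09 (adjusted p = 0.911, SE 0.44) and 0.84 (adjusted p = 0.112, SE 0.36). Col4a3 and Col4a4 start 71 bases apart and head away from each other, as do Col4a5 and Col4a6 at 1308 bases on chromosome X.

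Type VI collagen forms beaded microfilaments next to basement membranes. Its 3 classical chains were higher in Tg7 islets. Col6a1 (ENSMUSG00000001119, chr10:76171537-76188913, minus strand) was at 39.1, 37.6 and 35.7 CPM in Wt and 70.3, 47.5 and 47.5 CPM in Tg7 at 2w. At 12w the values were 4.54, 3.73 and 4.27 CPM and 27.4, 26 and 26.4 CPM. The genotypes were apart at both ages, and the log2 fold change was 0.56 (adjusted p = 0.034, SE 0.15) at 2w, a call that 7 of the 12 fits without 1 library lost, and 2.68 (adjusted p = 3.18e-07, SE 0.18) at 12w.

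Col6a2 (ENSMUSG00000020241, chr10:76058507-76086375, minus strand), on the same chromosome and strand, was at 40.0, 33.9 and 31.4 CPM in Wt and 67.3, 50.7 and 60.6 CPM in Tg7 at 2w. At 12w it was at 2.14, 2.86 and 3 CPM and 25.5, 27.9 and 27.6 CPM. No Tg7 library overlapped Wt, with 0.76 (adjusted p = 0.00475, SE 0.15) at 2w and 3.31 (adjusted p = 6.45e-08, SE 0.18) at 12w, which is a 9.92-fold higher level. The effect was larger at 12w by 2.12 (adjusted p = 5.30e-04, SE 0.23) for Col6a1 and by 2.55 (adjusted p = 7.40e-05, SE 0.23) for Col6a2. Col6a3 was at 40.8, 51.7 and 47 CPM and 94, 54.4 and 71.1 CPM at 2w. The levels at 12w were 9.45, 6.11 and 5.6 CPM in Wt and 22.7, 26.6 and 23.9 CPM in Tg7. It was apart at both ages and passed the test at 12w (1.82, adjusted p = 7.26e-05, SE 0.23) but not at 2w (0.66, adjusted p = 0.0517, SE 0.20).

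Col6a4, Col6a5 and Col6a6, the chains that can stand in for Col6a3, lie in tandem on chromosome 9 and differed in their values. Col6a6 (ENSMUSG00000043719, chr9:105591747-105730415, minus strand) was the 1 collagen gene downregulated in Tg7 islets, at both ages. It was at 55.9, 66.6 and 47.6 CPM in Wt and 14.3, 15.8 and 12 CPM in Tg7 at 2w. By 12w it was at 27.2, 34.5 and 74.4 CPM in Wt and 13.2, 15.3 and 16.2 CPM in Tg7. Every Tg7 library was below every Wt library, and Wt replicate 4 at 12w was the highest of the series. The log2 fold change was −2.01 (adjusted p = 7.97e-04, SE 0.29) at 2w and −1.61 (adjusted p = 0.00136, SE 0.29) at 12w, both kept in every alternative fit. The difference between ages was 0.40 (adjusted p = 0.724, SE 0.41), but without Wt replicate 4 at 12w it was 0.97 (adjusted p = 0.0405, SE 0.24) and passed the test. The 6 β-cell markers moved in the same direction, and their part in this result was not tested.

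Col6a5 was near the limit of detection. It was at 0.534, 0.147 and 0.585 CPM and 1.01, 0.195 and 0.497 CPM at 2w, and at 0.504, 0.397 and 0 CPM in Wt and 3.5, 0.885 and 3.03 CPM in Tg7 at 12w. The groups overlapped at 2w and were apart at 12w, where Tg7 replicate 2 was the lowest of its group. Since it passed the filter only through the group in which it is high, its 12w value (3.15, adjusted p = 0.0218, SE 0.90) is a description and supports no count, and it no longer passed without Wt replicate 4, Tg7 replicate 1 or Tg7 replicate 3 at 12w. Col6a4 did not pass the filter, with 156 counts in all, and at 2w its CPM was 6.08, 0.0649 and 0.546 in the Tg7 libraries, so that 1 library carried nearly all of them.

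Both type VIII genes, whose hexagonal networks are known from vessel walls and the cornea, were upregulated at 12w. Col8a2 was at 3.86, 3.54 and 6.76 CPM in Wt and 13.2, 14.2 and 16.9 CPM in Tg7 at 2w. Libraries of 12w islets held 1.13, 1.51 and 1.67 CPM and 8.8, 10.1 and 8.7 CPM. The groups were well apart at both ages, and the 2w value, 1.64 (adjusted p = 0.0011, SE 0.25), was the highest log2 fold change of the 33 genes at that age, with 2.64 (adjusted p = 2.51e-05, SE 0.29) at 12w. Col8a1 was at 1.9, 0.737 and 1.38 CPM and 2.56, 3.9 and 1.99 CPM at 2w, and at 0.504, 1.35 and 1 CPM and 3.72, 4.37 and 5.95 CPM at 12w. Although its groups did not overlap at 2w, it was called at 12w (2.25, adjusted p = 0.0028, SE 0.45) and not at 2w (1.05, adjusted p = 0.132, SE 0.43).

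The fibril-associated collagens Col12a1 and Col14a1, which coat type I fibrils, were called at 12w. Col14a1 was at 7.77, 7.29 and 5.05 CPM in Wt and 19.6, 10.8 and 11.5 CPM in Tg7 at 2w. It was at 1.26, 0.397 and 2 CPM and 12.9, 9.63 and 8.12 CPM at 12w. Tg7 was higher in every library of its age, with 1.06 (adjusted p = 0.0733, SE 0.36) at 2w and 3.04 (adjusted p = 2.11e-04, SE 0.43) at 12w. Col12a1 was at 5.22, 4.35 and 4.63 CPM and 16.6, 9.16 and 5.36 CPM at 2w. At 12w its level was 0.378, 0.238 and 0.867 CPM and 2.65, 1.77 and 2.46 CPM. The 3 Tg7 values at 2w were scattered but above Wt (1.13, adjusted p = 0.0789, SE 0.39), and the 12w call was 2.12 (adjusted p = 0.00851, SE 0.51).

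Col28a1, a collagen known from peripheral nerve, was at 3.32, 3.02 and 3.4 CPM in Wt and 3.25, 7.14 and 4.82 CPM in Tg7 at 2w. It was at 2.27, 2.78 and 1.13 CPM and 5.7, 7.36 and 3.78 CPM at 12w. The groups overlapped at 2w and not at 12w, where the log2 fold change was 1.46 (adjusted p = 0.0158, SE 0.39) and the call was lost without Tg7 replicate 2. Of 7 Schwann cell markers 6 were tested, and 2 of these were upregulated at 12w, where 12.5% of all tested genes were. All 7 markers summed to 8.07 to 18.2 CPM in Wt and 18.7 to 20.8 CPM in Tg7 at that age. Their part in this result was not tested.

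In the other class 8 tested genes were not called by genotype. They were Col7a1 (anchoring fibrils of the skin), Col9a2 and Col9a3 (cartilage), Col16a1, Col20a1, Col26a1 and the membrane-bound Col13a1 and Col25a1. At 12w their log2 fold changes ran from −0.07 for Col9a2 over 1.34 for Col9a3 to 1.45 for Col7a1, whose adjusted p in edgeR was 0.0502. Col13a1, which ranked among the 5 highest genes per kilobase in Wt islets at 2w, was at 63.5, 42.8 and 46.8 CPM in Wt and 30.4, 36.4 and 35.1 CPM in Tg7 at 2w. In 12w islets it was at 4.79, 12.9 and 14.3 CPM and 15.1, 16.3 and 16.4 CPM. Tg7 was below Wt at 2w and above it at 12w in every library, with −0.59 (adjusted p = 0.166, SE 0.26) and 0.55 (adjusted p = 0.18, SE 0.28). The difference between these effects, 1.14 (adjusted p = 0.191, SE 0.38), did not pass the test.

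The comparison of 12w with 2w asks how collagen RNA changes as islets mature. In Wt islets 21 of 33 tested collagen genes were downregulated, where 7.91% of all tested genes were, and 0 were upregulated (7.9%). In Tg7 islets 18 were downregulated (6.01%) and 0 upregulated (7.02%). Both downregulated counts, and the medians that follow, include Col25a1 and Col26a1, which passed the filter only through the 2w groups, where they are high. In the upward direction edgeR gave 0 genes in Wt and 1 in Tg7 at an unadjusted p under 0.05, and DESeq2 called 0 in both. The median log2 fold change was −1.81 in Wt and −0.78 in Tg7, beside 0.04 and −0.01 over all tested genes.

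The largest falls in Wt islets were those of Col5a1, Col6a2, Col3a1 and Col1a1. Col5a1 had a log2 fold change of −5.02 (adjusted p = 2.58e-07, SE 0.29) in Wt and −1.74 (adjusted p = 1.65e-04, SE 0.21) in Tg7. Col1a1 had −3.63 (adjusted p = 7.29e-07, SE 0.24) and −0.78 (adjusted p = 0.0164, SE 0.20), and the Tg7 call was lost without Tg7 replicate 1 at 2w or Tg7 replicate 1 or 2 at 12w. Col6a2 had −3.69 (adjusted p = 4.88e-08, SE 0.18) and −1.14 (adjusted p = 2.66e-04, SE 0.15). In each of these genes the loss in Wt was more than 2 log2 units larger than that in Tg7, which is the same quantity as the called difference between the genotype effects above. The medians of the fibrillar class were −3.23 in Wt and −0.90 in Tg7, and 6 of its 8 tested genes were downregulated in each genotype.

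In the basement membrane class 4 of 7 tested genes were downregulated in each genotype, with medians of −2.24 and −1.56. Col4a1 changed by −2.85 (adjusted p = 2.63e-07, SE 0.17) in Wt and −1.81 (adjusted p = 1.51e-05, SE 0.16) in Tg7. Col18a1, whose genotype effects did not differ between ages by the test, changed by −2.24 (adjusted p = 1.08e-06, SE 0.16) and −1.64 (adjusted p = 1.88e-05, SE 0.15). Of the 10 endothelial markers, 10 fell in Wt and 2 in Tg7, and of the 12 stellate cell markers 6 fell in Wt and 3 in Tg7. Of all tested genes 7.91% fell in Wt and 6.01% in Tg7. The part of these markers in the change was not tested.

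In the other class 11 of 18 tested genes fell in Wt and 8 in Tg7, with medians of −1.66 and −0.65, Col25a1 and Col26a1 included. Some were called by age without a genotype call. Col9a2 fell in both, with −1.65 (adjusted p = 0.0042, SE 0.33) in Wt and −1.50 (adjusted p = 0.00749, SE 0.32) in Tg7. Col13a1 fell likewise, with −2.23 (adjusted p = 1.58e-04, SE 0.28) and −1.09 (adjusted p = 0.0154, SE 0.27). The low-level genes Col25a1 and Col26a1 had log2 fold changes of −1.81 and −1.66 in Wt and of −2.16 and −2.34 in Tg7. They passed the filter only through the 2w groups, where they are high, so these values are a description and support no count. Col16a1 passed in Wt alone (−0.96, adjusted p = 0.0341, SE 0.28), where the difference from Tg7 was 0.35 (adjusted p = 0.758, SE 0.39). The Wt calls of Col16a1, Col25a1 and Col26a1 were lost in at least 5 of the 12 fits without 1 library. In Tg7 the Col13a1 call was lost without any of the 3 Tg7 libraries at 12w, and that of Col25a1 without Tg7 replicate 2 at 12w. By contrast Col27a1 (−0.24, adjusted p = 0.61, SE 0.29 in Wt), Col20a1 (−0.61, adjusted p = 0.226, SE 0.33) and Col6a6 (−0.31, adjusted p = 0.478, SE 0.28) did not pass the test with age in either genotype, and of these Col6a6 was downregulated in Wt without replicate 4 at 12w.

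**Figure D4:**
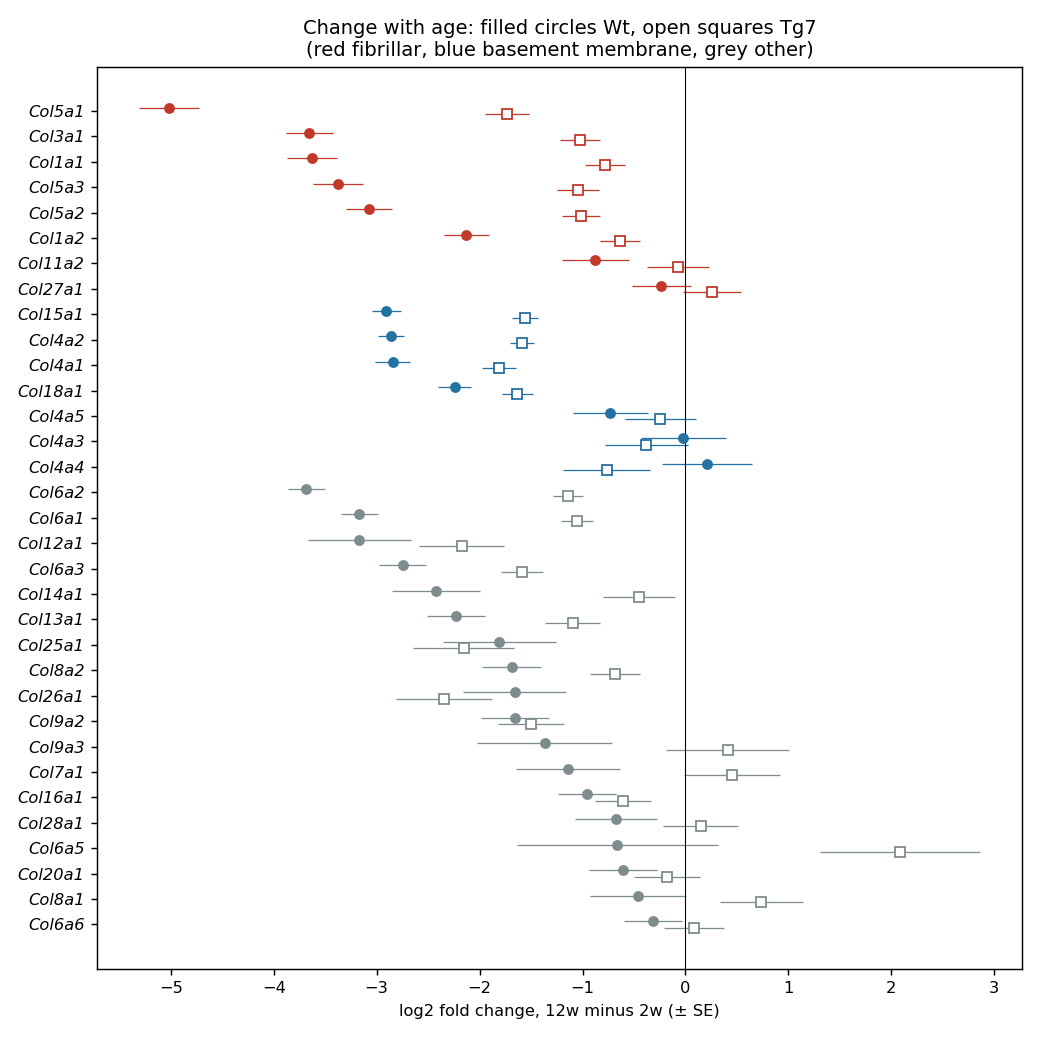
Log2 fold change from 2w to 12w of each tested collagen gene, with filled circles for Wt, open squares for Tg7 and standard errors as bars, ordered by class and by the Wt value. Nearly all Wt values lie below 0, and the fibrillar genes Col5a1, Col3a1 and Col1a1 show the widest gaps between circle and square within their class.

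Partner chains of 1 collagen were set against each other by their ratio per kilobase within each library. The ratio of Col1a1 to Col1a2 was 1.65, 1.89 and 1.75 in Wt and 1.97, 2.32 and 2.12 in Tg7 at 2w. By 12w it was 0.769, 0.57 and 0.56 in Wt and 1.86, 1.63 and 2.21 in Tg7. The Wt libraries at 12w lay below all other libraries. The numerators there were small, with 117 counts of Col1a1 over the 3 libraries.

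The ratio of Col5a1 to Col5a2 was 1.57, 1.82 and 1.72 in Wt and 1.96, 1.36 and 2.22 in Tg7 at 2w. In 12w islets it was 0.188, 0.734 and 0.408 in Wt and 1.2, 0.922 and 1.28 in Tg7. Wt islets at 12w were again lowest in every library, here with 29 counts of Col5a1 in all. Merged exons and the longest transcript give different lengths, and the mean ratio of Col1a1 to Col1a2 in Wt at 2w was 1.76 with the former and 0.859 with the latter. A fixed length scales all libraries alike and leaves their order unchanged.

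For the type IV pair, the ratio of Col4a1 to Col4a2 was 1.55, 1.59 and 1.47 in Wt and 1.55, 1.6 and 1.48 in Tg7 at 2w. The 12w ratio was 1.32, 1.46 and 1.87 in Wt and 1.26, 1.34 and 1.35 in Tg7. In Tg7 each 12w ratio lay below each 2w ratio, and so did replicates 1 and 2 of Wt, while Wt replicate 4 at 12w was the highest of the series. The Wt means of 1.54 at 2w and 1.55 at 12w rest on that library. The 12w Tg7 libraries overlapped the lowest Wt library of that age. For Col6a1 and Col6a2 the ratio averaged 2.04 and 1.75 in Wt and Tg7 at 2w, and 3.06 ± 0.832 and 1.87 ± 0.144 at 12w (SD, n = 3). Ratios of 3 libraries against 3 were not tested, for the reason given with the shares.

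**Figure D5:**
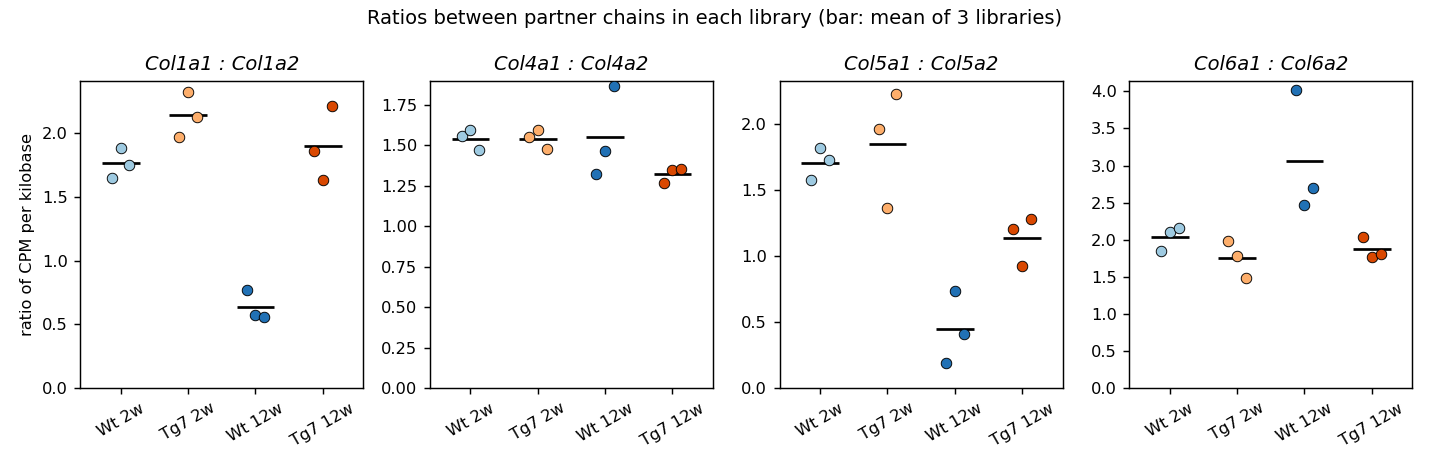
Ratio of the levels per kilobase of partner chains in each library, on axes that start at 0, with a bar at the mean of 3 libraries. The Wt libraries at 12w lie lowest for Col1a1 to Col1a2 and for Col5a1 to Col5a2, whereas the means of Col4a1 to Col4a2 lie between 1.32 and 1.55, with Wt replicate 4 at 12w the highest library.

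There were 11 genes with too few counts to be tested: Col2a1, Col4a6, Col6a4, Col9a1, Col10a1, Col11a1, Col17a1, Col19a1, Col22a1, Col23a1 and Col24a1. Their counts over all 12 libraries were 10 for Col9a1, 31 for Col10a1, 34 for Col4a6, 35 for Col22a1, 48 for Col19a1, 49 for Col17a1, 58 for Col11a1, 65 for Col24a1, 77 for Col2a1, 91 for Col23a1 and 156 for Col6a4. The fibrillar gene Col24a1 had 28 counts in Tg7 and 12 in Wt at 2w, and 25 in Tg7 and 0 in Wt at 12w. With 3 counts over the group as the limit that a count of 0 allows, the 12w level was at least 5.55-fold higher in Tg7. This takes the Tg7 count as exact, so the true limit is lower. Col11a1, a cartilage partner of Col11a2, had 15 counts in Tg7 and 0 in Wt at 12w, at least 3.33-fold higher on the same reckoning, and 24 and 19 at 2w. Col2a1, the main cartilage collagen, had 34 counts in Tg7 and 10 in Wt at 2w, but 24 of the 34 came from Tg7 replicate 3, and at 12w it had 25 and 8 counts, all 8 in Wt replicate 2. For Col23a1 the counts were 52 and 20 at 2w, a CPM ratio of 2.36 (95% interval 1.38 to 4.17). Other genes went the opposite way at 12w, with ratios of 0.5 for Col22a1, 0.571 for Col4a6 and 0.889 for Col6a4, whose 95% intervals all span 1. At that age the ratio was above 1 for the remaining genes with counts in both genotypes. The intervals cover counting error only, and the limits only that of the count of 0. Neither covers the spread between pools.

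A triple helix needs enzymes and chaperones, and 51 genes of collagen synthesis, processing, cross-linking and reception were examined beside the chains. Of these, 50 were found and 43 tested. At 2w 6 were upregulated and 3 downregulated, and at 12w 19 and 3, with median log2 fold changes of 0.24 and 0.56. Of all tested genes 6.07% and 4.55% were called at 2w and 12.5% and 11.2% at 12w, upregulated and downregulated in turn. The difference between ages was called for 3, all larger at 12w, beside 0.871% of all tested genes that were larger and 0.307% that were smaller.

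Outside the cell the called genes were all higher in Tg7 at 12w. In propeptide removal 4 of 6 tested genes were upregulated at 12w. Adamts2, which cuts the amino-terminal propeptide, had a log2 fold change of 1.07 (adjusted p = 0.0424, SE 0.31) at 2w and 3.57 (adjusted p = 2.52e-05, SE 0.39) at 12w. Pcolce, an enhancer of carboxy-terminal cleavage, had 1.23 (adjusted p = 0.00335, SE 0.22) and 1.46 (adjusted p = 5.35e-04, SE 0.23). In cross-linking 3 of 4 tested genes were upregulated at 12w, among them Lox, which had no count in the 3 Wt libraries and averaged 0.771 CPM in Tg7, and Loxl1 (1.20, adjusted p = 0.00489, SE 0.26). The remaining one, Loxl2, was downregulated at 2w (−0.95, adjusted p = 0.00898, SE 0.20), from 74, 70.6 and 66.7 CPM in Wt to 40.6, 29.5 and 38.7 CPM in Tg7, and not called at 12w (−0.06, adjusted p = 0.869, SE 0.21).

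Of the 5 fibril-associated proteins, 3 were upregulated at 12w: Sparc, a collagen-binding glycoprotein (1.56, adjusted p = 3.14e-05, SE 0.18), Bgn, the proteoglycan biglycan (2.18, adjusted p = 1.30e-05, SE 0.22), and Postn, periostin (2.35, adjusted p = 3.08e-04, SE 0.35). Fn1, fibronectin, passed at 2w (1.99, adjusted p = 0.0447, SE 0.59) and not at 12w (1.02, adjusted p = 0.321, SE 0.69), but the 2w value rested on 1 library, with 194, 22.3 and 32.7 CPM in Tg7 and 17.2, 25 and 20.6 CPM in Wt. Among receptors, 3 of 6 tested were upregulated at 12w, and Ddr2, a kinase that binds fibrillar collagen, had 2.05 (adjusted p = 8.09e-04, SE 0.35).

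Within the endoplasmic reticulum the directions were mixed. Plod2, a lysyl hydroxylase that prepares cross-links, was upregulated at both ages (1.23, adjusted p = 0.00709, SE 0.25 and 2.41, adjusted p = 3.09e-05, SE 0.27), and Serpinh1, the collagen chaperone HSP47, at 12w (1.10, adjusted p = 0.00124, SE 0.20). Of 3 tested prolyl 4-hydroxylase genes, P4ha2 was upregulated at 12w (0.77, adjusted p = 0.00638, SE 0.18), and P4hb, which is also the protein disulphide isomerase of secretory cells, was not called (0.29, adjusted p = 0.136, SE 0.13). Ppib, cyclophilin B, was downregulated at both ages (−0.66, adjusted p = 0.0315, SE 0.18 and −0.82, adjusted p = 0.00455, SE 0.18), as was Creb3l1, a transcription factor of secretory and collagen genes (−0.96, adjusted p = 0.00411, SE 0.18 and −1.45, adjusted p = 7.65e-05, SE 0.18). With age, 17 of the 43 tested genes fell in Wt and 12 in Tg7, and 1 and 4 rose, beside 7.91% and 6.01% of all tested genes that fell and 7.9% and 7.02% that rose.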

How the data were processed

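RNA of pooled pancreatic islets was sequenced by the authors as paired-end reads (NEB Ultra II libraries, HiSeq2500). Per the labels, bcl2fastq 2.20.0, Trimmomatic, TopHat2 2.0.11 and featureCounts were used on NCBIM37 (mm9), while the study's methods name CASAVA for base calling. Version and strand option of featureCounts were not given in the sources used here. Deposited values are the authors' raw counts per Ensembl gene in 12 libraries (11610697 to 17515758 counts), and every column was used. Gene symbols, matched for 37205 of 37991 genes, and lengths came from GENCODE M1.

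Counts were filtered with filterByExpr (minimum count 10, minimum total 15), scaled with TMM and fitted in edgeR 4.0.16 (R 4.3.3) by quasi-likelihood as group means of all 12 libraries, with Benjamini-Hochberg adjustment at 0.05. The common biological coefficient of variation was 0.212. The contrasts were Tg7 against Wt at each age, their difference and 12w against 2w in each genotype. The script was tested on simulated data. Alternatives were DESeq2 1.42.0, upper-quartile factors, library size alone, no filter, a stricter filter (50 counts in 3 libraries), a replicate block, each age alone and each library left out.

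Every collagen gene called between genotypes is given in every library, other tested genes by fold change or level, and untested genes by their total counts. Collagen genes, classes and lists were chosen with earlier results of these data known. The genes detailed among synthesis genes were picked after their values were seen. The GC box, CCAAT box, TATA box and seed searches were exact string matches.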

Additional observations from a re-analysis of the deposited data

Results flagged for a closer look

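For 11 collagen genes the effect of Tg7 against Wt differed between 12w and 2w by the interaction test in edgeR (adjusted p under 0.05 over all 15961 genes). In each the effect at 12w was the larger one. On the log2 scale the difference was 3.28 for Col5a1, 2.85 for Col1a1, 2.63 for Col3a1, 2.33 for Col5a3, 2.06 for Col5a2 and 1.49 for Col1a2 among the fibrillar genes. It was 1.34 for Col15a1, 1.27 for Col4a2 and 1.03 for Col4a1 among the basement membrane genes, and 2.55 for Col6a2 and 2.12 for Col6a1 in type VI. The same 11 differences can be read as a smaller fall with age in Tg7 than in Wt islets. The stellate cell and endothelial marker sums, 77.9 to 142 and 425 to 551 CPM in Wt at 12w, were lower than in the other groups as well, and their part in these differences was not tested.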

How the results depend on the processing

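The number of collagen genes upregulated at 2w, 7, depended most on the processing: it was 12 with DESeq2, 14 with library size alone, 12 with the replicate block, 11 in edgeR on the 2w libraries alone and 3 to 12 when each library was left out. The number downregulated at 2w was 1, became 2 on the 2w libraries alone, and was 1 to 2 with a library left out. The upregulated count with age in Tg7 was 0, became 1 with the replicate block (Col6a5) and was 0 to 1 with a library left out, with the 1 arising without Wt replicate 4 at 12w. The other counts stayed within 1.5 times: with a library left out, 19 to 27 were upregulated at 12w (27 without Wt replicate 2), 9 to 13 differed between ages, and 18 to 22 in Wt and 14 to 19 in Tg7 fell with age. No collagen call changed sign in any alternative. Of the calls, 4 of 8 at 2w, 19 of 21 at 12w, 9 of 11 in the difference, 18 of 21 in Wt with age and 14 of 18 in Tg7 with age were kept in every alternative. DESeq2 kept all of these calls and added 5 at 2w (Col6a3, Col12a1, Col14a1, Col15a1 and Col18a1) and 3 at 12w (Col7a1, Col11a1 and Col24a1). Library size alone shifted the median over all tested genes to a log2 value of 0.19 at 2w, 0.43 at 12w and −0.35 with age in Wt. The labels do not say whether same-numbered Wt and Tg7 libraries were paired. The correlations of their residuals were −0.0214, −0.167 and −0.0343 at 2w and −0.0894 and −0.0112 at 12w, which cannot decide it with 3 libraries per group. Under the replicate block Wt replicate 4 at 12w has a term of its own and adds nothing, so that the difference between ages for Col6a6 passed as it did without that library. In an alternative chosen after its values were seen, Col27a1 was left out of the fibrillar class but kept in the collagen total. The fibrillar share of the summed level per kilobase then moved from 14.3% to 7.57% in Wt and from 27.9% to 23.6% in Tg7 at 12w. At 2w it was 11.2% and 17.3%. The 11 untested genes failed the filter of the edgeR fit, and DESeq2, with a filter of its own, gave an adjusted p for 35 to 40 of the 44 genes.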
